A study of Oryza sativa with 6 samples.

Results

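Ammonium transporters of rice (Oryza sativa) roots were followed in 6 RNA-sequencing libraries, 3 from roots given 10 µM cadmium with 0.5% Fo10 (Fo+Cd) and 3 from roots given 10 µM cadmium alone (Cd). Members were all gene models of the authors' table whose description begins with "Ammonium transporter". The rule found 9 of 40745 gene models. It used no measured value, but the family was chosen with earlier results of these data known. The plants were wild type, and both groups carried the cadmium treatment, so the comparison is of Fo10 on a cadmium background. What Fo10 is cannot be read from the labels, which also give neither the age of the plants nor the nitrogen source of the medium.

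Ammonium transporters (AMT proteins) are membrane proteins of the AMT/MEP/Rh family that carry ammonium across the plasma membrane of root cells. Rice in flooded soil takes up much of its nitrogen as ammonium, and the root is the organ of that uptake. Inside the cell ammonium is bound into glutamine by glutamine synthetase and passed to glutamate by glutamate synthase.

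The table names no member beyond the words "Ammonium transporter", so the genes are called by their identifiers, each with the UniProt entry its description cites. The RefSeq gene table of japonica rice lists 9 loci under OsAMT names, OsAMT1;1 and OsAMT2;1 among them. It does not hold the indica-type identifiers used here, so no member could be paired with an AMT name or with a role within the family. The identifiers BGIOSGA008640 (A2X7B5) and BGIOSGA008641 (A2X7B7) are consecutive, as are BGIOSGA000550 (B8ABN3) and BGIOSGA000551 (A2WWM8). The other 5 members are BGIOSGA016747 (A2XVF3), BGIOSGA013903 (A2XNU1), BGIOSGA020018 (A2Y5L5), BGIOSGA004884 (A2WXE3) and BGIOSGA008408 (A2X5Y4). Reads could be shared between close copies, and sequences with which to check this were not used here.

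Levels are the authors' TPM (transcript abundance scaled for gene length and to a fixed total per library), so that levels of different genes can be set side by side. TPM does not keep the depth of a library, so the read numbers behind these levels are unknown. The root markers were present in all libraries. The list of 5 root genes summed to 911 to 1313 TPM in Fo+Cd and 868 to 1046 TPM in Cd, and most of that sum came from the silicon efflux transporter BGIOSGA011605, at 730 to 1120 TPM in Fo+Cd and 642 to 837 TPM in Cd. The other 4 encode Casparian strip membrane proteins of the endodermis, and all 4 had lower means in Fo+Cd. In 3 of the 4 the groups did not overlap, against 10% of tested features that were lower without overlap. These were Casparian strip membrane protein 1 (BGIOSGA017380), at 137 to 149 TPM in Fo+Cd and 159 to 182 TPM in Cd, protein 2 (BGIOSGA027833), at 35.8 to 40.8 TPM in Fo+Cd and 41.0 to 52.5 TPM in Cd, and protein 6 (BGIOSGA016544), at 4.55 to 5.81 TPM in Fo+Cd and 5.93 to 9.32 TPM in Cd. None of the 4 was called by limma (3 with an unadjusted p under 0.05; the smallest adjusted p was 0.278). The part of these markers in the differences given below was not tested. Shoot markers were low, since the 25 photosynthesis genes summed to 23.4 to 33.2 TPM in Fo+Cd and 23.9 to 26.0 TPM in Cd, with 14 to 15 of them listed at 0 in Fo+Cd libraries and 11 to 13 in Cd libraries.

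Most of the members were well expressed in these roots, BGIOSGA000550 and BGIOSGA008640 were lower, and the last pair stayed under 1 TPM in all 6 libraries. The highest mean level over the 6 libraries belonged to BGIOSGA008641, at 102 TPM, above 95.9% of all listed features. BGIOSGA016747 followed at 79.2 TPM. It was below BGIOSGA008641 in each of the 6 libraries, although the ranges of the pair over libraries overlapped in both groups. BGIOSGA013903 averaged 45.3 TPM, and its values lay under those of BGIOSGA016747 with no overlap in either group. BGIOSGA013903 and BGIOSGA000551 (41.0 TPM) overlapped in both groups, so their order is not beyond their spread. BGIOSGA020018 averaged 34.4 TPM, and it overlapped with BGIOSGA000551 in Fo+Cd but not in Cd. A gap followed, down to 8.37 TPM for BGIOSGA000550 and 4.83 TPM for BGIOSGA008640, which overlapped with each other in Fo+Cd but not in Cd. BGIOSGA004884 averaged 0.52 TPM and BGIOSGA008408 averaged 0.178 TPM.

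**Figure D1:**
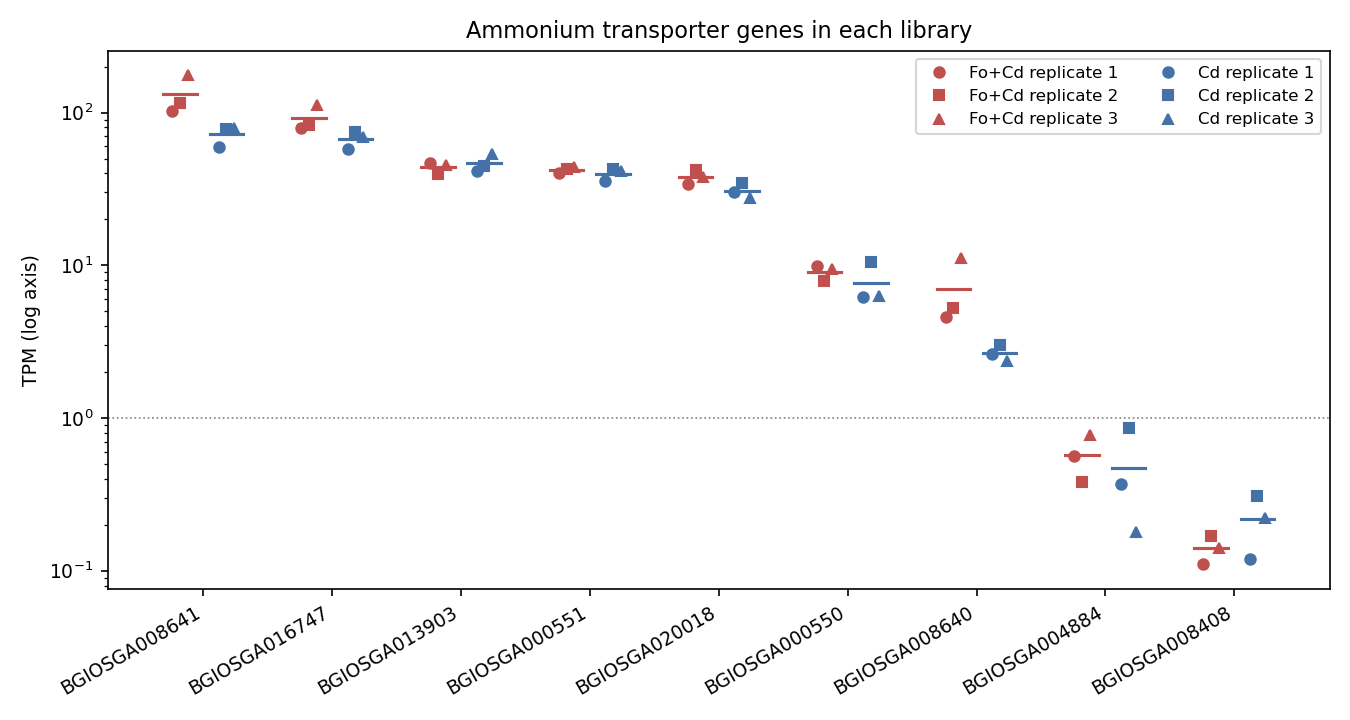
TPM (log axis) of the 9 ammonium transporter genes in each library, ordered by mean level, with Fo+Cd left of Cd for each gene, replicates as symbols, group means as short lines and a dotted line at 1 TPM. BGIOSGA008641 lies between 103 and 176 TPM in Fo+Cd and between 59.9 and 79.5 TPM in Cd, while BGIOSGA004884 and BGIOSGA008408 lie under 1 TPM throughout.

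The comparison asked whether transcripts of the family differ when Fo10 is given with cadmium. None of the members passed the test: 0 of the 7 tested were called at an adjusted p under 0.05 by limma, whose calls took in 518 of 21166 tested features (2.45%, made up of 1.72% higher and 0.723% lower in Fo+Cd). Before adjustment, 4 of the 7 had p under 0.05, all 4 with higher values in Fo+Cd. Of all tested features, 15.4% had p under 0.05 and 7.35% were also higher. Fo+Cd and Cd values did not overlap in 3 of the 7, again all higher in Fo+Cd, against 11.3% of tested features. The median log2 fold change of the 7 was 0.30, with 6 of 7 above 0, beside a median of 0.0025 and 50.4% above 0 over all tested features. The members are not separate observations in these counts, and the family was chosen with earlier results of these data known. With group means removed, BGIOSGA008641, BGIOSGA016747 and BGIOSGA008640 correlated with each other at 0.85 to 0.98 over the 6 libraries. The largest unadjusted p of any called feature was 0.00122, and no member reached it. All 7 tested genes were at 1 TPM or more in every library, so none passed the filter through one group alone.

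BGIOSGA008641, the most abundant member, had 103, 116 and 176 TPM in Fo+Cd replicates 1, 2 and 3, against 59.9, 78.1 and 79.5 TPM in Cd replicates 1, 2 and 3. Every Fo+Cd library was above every Cd library, and Fo+Cd replicate 3 stood well above all others. The means were 132 ± 38.7 TPM in Fo+Cd and 72.5 ± 11.0 TPM in Cd (SD, n = 3 each). On the log2(TPM + 1) scale the fold change was 0.82 (SE 0.214, limma adjusted p = 0.125), with a 95% interval, not adjusted for the number of features, of 0.31 to 1.33. Its interval covers changes between 1.24-fold and 2.52-fold, and 5.3% of tested features had a fold change of at least this size in either direction. The spread of this gene within groups was wide, at 0.325 on the log2 scale, larger than in 82.5% of tested features.

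BGIOSGA008640, whose identifier precedes it, had the largest fold change of the family at a far lower level. It had 4.56, 5.24 and 11.2 TPM in Fo+Cd replicates 1, 2 and 3, and 2.64, 3.02 and 2.35 TPM in Cd replicates 1, 2 and 3. The groups did not overlap, and the value of Fo+Cd replicate 3 was the only one above 10 TPM. Its log2 fold change was 1.04 (SE 0.295, limma adjusted p = 0.152), and the 95% interval ran from 0.34 to 1.73. Without Fo+Cd replicate 3 it was 0.69 (adjusted p = 0.198). The added 1 makes fold changes at low levels smaller than those at high levels. With 0.1 added in its place, the log2 fold change of BGIOSGA008640 was 1.25 (limma adjusted p = 0.138). In TPM this gene stood at 4.43%, 4.51% and 6.36% of the level of BGIOSGA008641 in Fo+Cd replicates 1, 2 and 3, and at 4.41%, 3.87% and 2.95% in Cd replicates 1, 2 and 3.

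BGIOSGA016747 had 78.9, 82.5 and 113 TPM in Fo+Cd replicates 1, 2 and 3, against 57.6, 74.1 and 69.3 TPM in Cd replicates 1, 2 and 3. The groups did not overlap, though the lowest Fo+Cd value was only slightly above the highest Cd value, that of replicate 2. The log2 fold change was 0.43 (SE 0.16, limma adjusted p = 0.26), with a 95% interval of 0.05 to 0.81. Without Fo+Cd replicate 3 the value was 0.27 (adjusted p = 0.501).

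BGIOSGA020018 was higher in Fo+Cd on average, but its groups overlapped. Its levels were 34.2, 42.1 and 37.7 TPM in Fo+Cd replicates 1, 2 and 3, and 30.3, 34.4 and 27.7 TPM in Cd replicates 1, 2 and 3. Fo+Cd replicate 1 lay just under Cd replicate 2. The log2 fold change of this gene was 0.30 (SE 0.116, limma adjusted p = 0.289), with a 95% interval of 0.02 to 0.57. Here Fo+Cd replicate 3 was not the highest library, unlike in the preceding 3 genes.

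The remaining tested members had intervals that took in both directions. BGIOSGA013903 had 47.0, 39.8 and 45.4 TPM in Fo+Cd replicates 1, 2 and 3, against 41.6, 44.8 and 53.4 TPM in Cd replicates 1, 2 and 3. It was the one tested member with a fold change under 0, at -0.07 (95% interval -0.35 to 0.20, limma adjusted p = 0.812), and the sign turned without Cd replicate 3 (0.026). BGIOSGA000551 had 40.0, 42.7 and 43.7 TPM in Fo+Cd replicates 1, 2 and 3, and 35.4, 42.8 and 41.3 TPM in Cd replicates 1, 2 and 3. The log2 fold change of BGIOSGA000551 was 0.08, and its 95% interval of -0.15 to 0.31 was the narrowest of the family (adjusted p = 0.74). Changes of BGIOSGA000551 beyond 1.24-fold upward or 0.903-fold downward lie outside that interval. BGIOSGA000550 had 9.85, 7.9 and 9.46 TPM in Fo+Cd replicates 1, 2 and 3, against 6.24, 10.5 and 6.27 TPM in Cd replicates 1, 2 and 3. Cd replicate 2 was the highest library for this gene, above all 3 Fo+Cd libraries, and the other Cd libraries were the lowest. The log2 fold change of BGIOSGA000550 was 0.25 (95% interval -0.23 to 0.73, adjusted p = 0.612), and it was 0.47 without Cd replicate 2 and 0.14 without Cd replicate 1 or Cd replicate 3.

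The low members were not tested, since they were under 1 TPM in every library. BGIOSGA004884 had 0.56, 0.38 and 0.77 TPM in Fo+Cd replicates 1, 2 and 3, and 0.37, 0.86 and 0.18 TPM in Cd replicates 1, 2 and 3, so the groups overlapped. BGIOSGA008408 had 0.11, 0.17 and 0.14 TPM in Fo+Cd replicates 1, 2 and 3, against 0.12, 0.31 and 0.22 TPM in Cd replicates 1, 2 and 3. Neither gene was listed at 0 in any library.

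**Figure D2:**
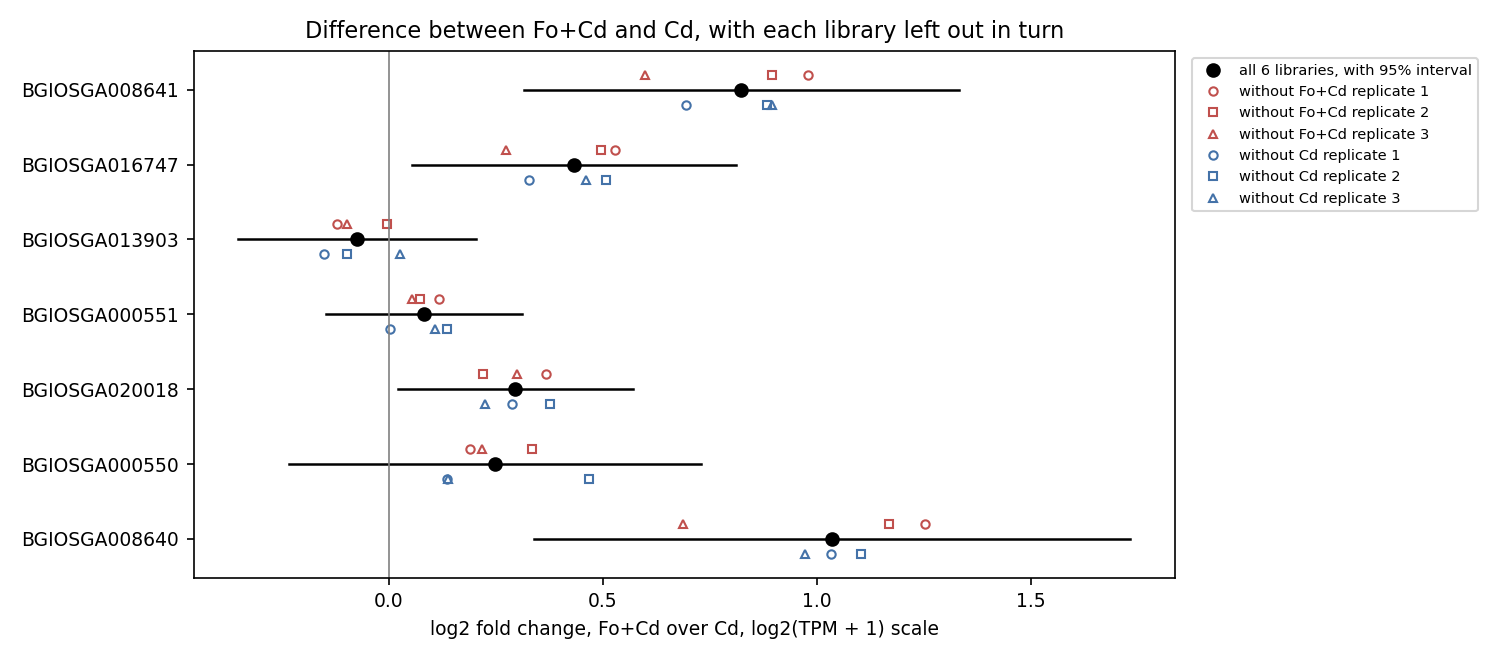
Log2 fold change (Fo+Cd over Cd, log2(TPM + 1) scale) of the 7 tested ammonium transporter genes, with 95% intervals from all 6 libraries (black) and the value with each library left out in turn (open symbols, red for Fo+Cd libraries and blue for Cd libraries). BGIOSGA008641 stays between 0.60 and 0.98 with any one library left out, and its lowest value is the one without Fo+Cd replicate 3.

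Fo+Cd replicate 3 was the highest of the 6 libraries in 4 of the 7 tested members (BGIOSGA008641, BGIOSGA016747, BGIOSGA008640 and BGIOSGA000551), whereas it was the highest library for 10.5% of all tested features. Cd replicate 1 was the lowest library in 4 of the 7 (BGIOSGA008641, BGIOSGA016747, BGIOSGA000551 and BGIOSGA000550), against 17.4% of all tested features. The number of members with an unadjusted p under 0.05 was 2, BGIOSGA008641 and BGIOSGA008640, when Fo+Cd replicate 3, Cd replicate 1 or Cd replicate 3 was left out. These library positions move with the difference between the groups, and their part in it was not tested.

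The summed level of the 9 genes was 318, 337 and 437 TPM in Fo+Cd replicates 1, 2 and 3, and 234, 289 and 280 TPM in Cd replicates 1, 2 and 3. The sums did not overlap, and their means were 364 ± 63.7 TPM in Fo+Cd and 268 ± 29.4 TPM in Cd (SD, n = 3 each). Of the difference of 96.1 TPM in the sum, 37.1 TPM was left when BGIOSGA008641 was taken out, and 59.8 TPM when Fo+Cd replicate 3 was left out. In bulk tissue, more cells that express a gene and more RNA per cell cannot be told apart.

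The make-up of the sum also differed, which is not a separate result, since shares follow from the levels given above. BGIOSGA008641 held 32.4%, 34.5% and 40.2% of the family's TPM in Fo+Cd replicates 1, 2 and 3, and 25.6%, 27.0% and 28.4% in Cd replicates 1, 2 and 3. In each Fo+Cd library its share was above that in every Cd library. BGIOSGA016747 held 25.0% ± 0.698 of the sum in Fo+Cd and 25.0% ± 0.565 in Cd. The share of BGIOSGA013903 was 12.3% ± 2.22 in Fo+Cd and 17.4% ± 1.79 in Cd. That of BGIOSGA000551 was 11.7% ± 1.51 in Fo+Cd and 14.9% ± 0.214 in Cd. A share falls when the sum rises. Mean levels were 44.1 TPM in Fo+Cd and 46.6 TPM in Cd for BGIOSGA013903, and 42.1 and 39.8 TPM for BGIOSGA000551. As a ratio of levels, BGIOSGA008641 was at 1.30, 1.41 and 1.56 times BGIOSGA016747 in Fo+Cd replicates 1, 2 and 3, and at 1.04, 1.05 and 1.15 times in Cd replicates 1, 2 and 3. The most abundant pair was thus nearer to level in each Cd library than in any Fo+Cd library, while their ranges over libraries overlapped in both groups. Shares and ratios over members are given as descriptions, without a test.

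**Figure D3:**
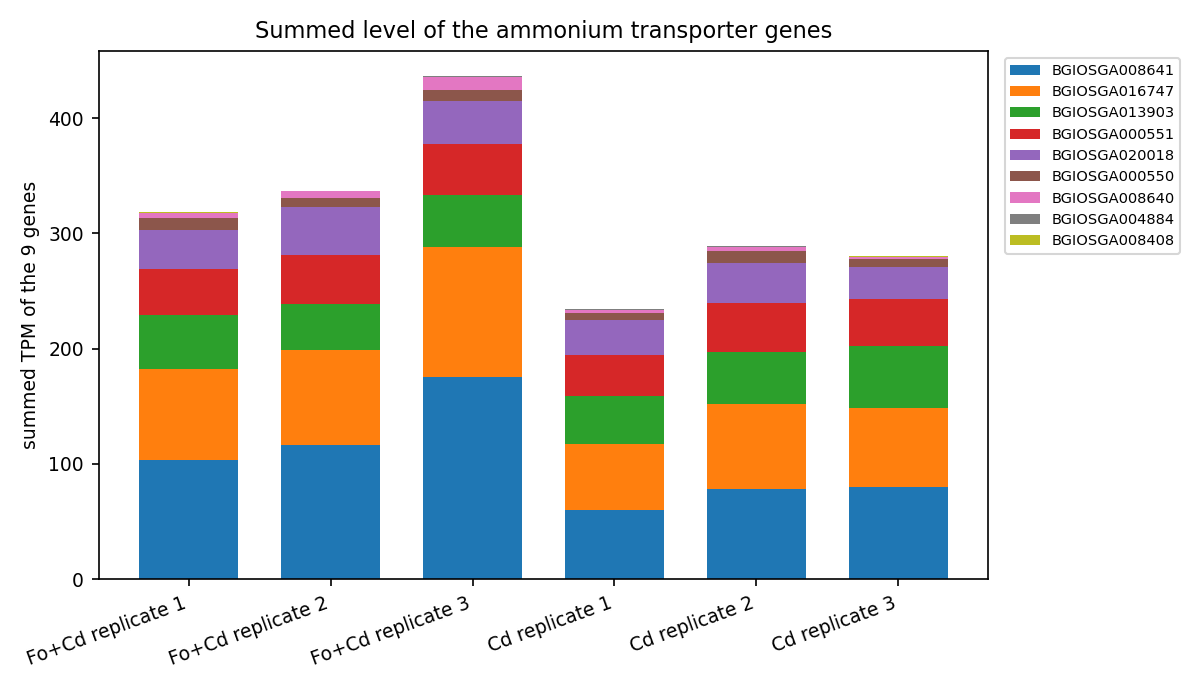
Summed TPM of the 9 ammonium transporter genes in each library, Fo+Cd left of Cd, with each gene as a stacked segment. The sums lie between 318 and 437 TPM in Fo+Cd and between 234 and 289 TPM in Cd, and the bottom segment, BGIOSGA008641, takes 32.4% to 40.2% of the Fo+Cd bars and 25.6% to 28.4% of the Cd bars.

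The features whose pattern over the 6 libraries was most like that of BGIOSGA008641, by Pearson correlation of log2(TPM + 1) among tested features with a database-sourced description, included another member of the family. Of the 4288 such features, 18 had a coefficient above 0.95. The coefficients take in the difference between Fo+Cd and Cd as well as the spread within each group. The closest was BGIOSGA016324, described as a potassium transporter (r = 0.99), at 123, 127 and 151 TPM in Fo+Cd replicates 1, 2 and 3 and at 98.7, 105 and 106 TPM in Cd replicates 1, 2 and 3. Next came BGIOSGA026374, described as a hypoxia-induced gene domain protein (r = 0.984), and then the ammonium transporter BGIOSGA016747 (r = 0.981). BGIOSGA016217, of the DETOXIFICATION exporters (r = 0.98), and ABCG36 (BGIOSGA001233), an ABC transporter (r = 0.976), completed the set. None of these 5 was called in limma (adjusted p 0.139 to 0.26). All had their highest value in Fo+Cd replicate 3, as BGIOSGA008641 had, and they were chosen for a pattern like that of BGIOSGA008641.

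Other genes of nitrogen uptake and assimilation, and potassium channels and transporters, were looked up by description, which reached few of them, since most gene models in the table carry no description. The 3 nitrogen lists with a match held 13 genes, of which 11 were tested and 1 was called, and the potassium list held 24, of which 15 were tested and 1 was called. Both calls were rises, beside 1.72% of all tested features that were called higher, and single calls in lists of this size say nothing about the lists. The gene called in the potassium list, HAK16, was tested only because its Fo+Cd values were high. No description matched the list of AMT regulators.

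Of the ammonium assimilation genes, 0 of 5 tested passed limma, also at an unadjusted p under 0.05, and the median log2 fold change was -0.03. Glutamine synthetase BGIOSGA011196 was among the most abundant transcripts of the roots. It had 1005, 1271 and 1739 TPM in Fo+Cd replicates 1, 2 and 3, against 974, 1069 and 1009 TPM in Cd replicates 1, 2 and 3. Fo+Cd replicate 1 lay within the Cd values, and Fo+Cd replicate 3 was the highest (log2 fold change 0.36, 95% interval -0.09 to 0.81, limma adjusted p = 0.428). In the other tested genes of this list a different library was the highest. The glutamine synthetase gene BGIOSGA009926 averaged 1.86 ± 1.07 TPM in Fo+Cd and 2.16 ± 0.699 TPM in Cd (SD, n = 3 each, limma adjusted p = 0.818). No glutamate synthase or asparagine synthetase gene was matched by description.

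Of the 4 genes tested in the nitrate uptake and reduction list, the one called was NPF8.3 (BGIOSGA017039). It entered the list by its family name, NRT1/PTR, a family of nitrate and peptide transporters. Its description does not say that it carries nitrate, so the call is not one of a known nitrate uptake gene. NPF8.3 had 6.17, 9.34 and 6.97 TPM in Fo+Cd replicates 1, 2 and 3, against 2.2, 2.85 and 3.52 TPM in Cd replicates 1, 2 and 3. The groups did not overlap (log2 fold change 1.14, SE 0.197, limma adjusted p = 0.0339). Its description cites no database, and 206 of 226 tested genes so described were called, so the description is not independent of the call. With any single library left out, NPF8.3 missed the threshold (adjusted p 0.0603 to 0.122). Unadjusted limma p was under 0.05 in 2 of the 4, NPF8.3 and BGIOSGA022659, both higher in Fo+Cd, beside 7.35% of all tested features. The groups did not overlap in the same 2 genes, both higher, beside 11.3% of all tested features. The median log2 fold change of these 4 was 0.51. NPF8.3 is in both counts and in the median through its description, so these values are not read as a result about the list. BGIOSGA022659 had a log2 fold change of 0.63 (limma adjusted p = 0.112).

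Of the urea and amino acid uptake genes 0 of 2 passed limma, also unadjusted. BGIOSGA014548, described as lysine histidine transporter-like 7 by projection from Arabidopsis thaliana, averaged 6.13 ± 1.81 TPM in Fo+Cd and 4.35 ± 1.52 TPM in Cd (SD, n = 3 each, limma adjusted p = 0.504). BGIOSGA036184, described as lysine histidine transporter-like 8, averaged 1.42 ± 0.46 TPM in Fo+Cd and 0.98 ± 0.367 TPM in Cd (limma adjusted p = 0.607).

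Potassium channels and transporters were included because the potassium and ammonium ions are alike in charge and size. Unadjusted limma p was under 0.05 in 3 that were higher in Fo+Cd and 1 that was lower, beside 15.4% of all tested features. The groups did not overlap in 4, of which 3 were higher, beside 11.3% of all tested features higher and 10% lower without overlap. The 15 tested had a median log2 fold change of 0.02, and the one called was HAK16 (BGIOSGA010386), a potassium transporter, at 2.64, 2.17 and 3.45 TPM in Fo+Cd replicates 1, 2 and 3 and at 0.9, 0.9 and 0.63 TPM in Cd replicates 1, 2 and 3 (log2 fold change 1.04, SE 0.192, limma adjusted p = 0.0425). With 0.1 in place of 1 added to TPM, its log2 fold change was 1.64 (limma adjusted p = 0.0503). HAK16 passed the filter on low values through its Fo+Cd libraries alone, so a difference was a condition of its being tested. It is among the 3 higher genes in both counts above, so those counts are not read as a result about the list. HAK16 missed the threshold when Cd replicate 1, 2 or 3 was left out (adjusted p = 0.108, 0.0602 and 0.152), and it was under the filter when any one Fo+Cd library was left out.

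**Figure D4:**
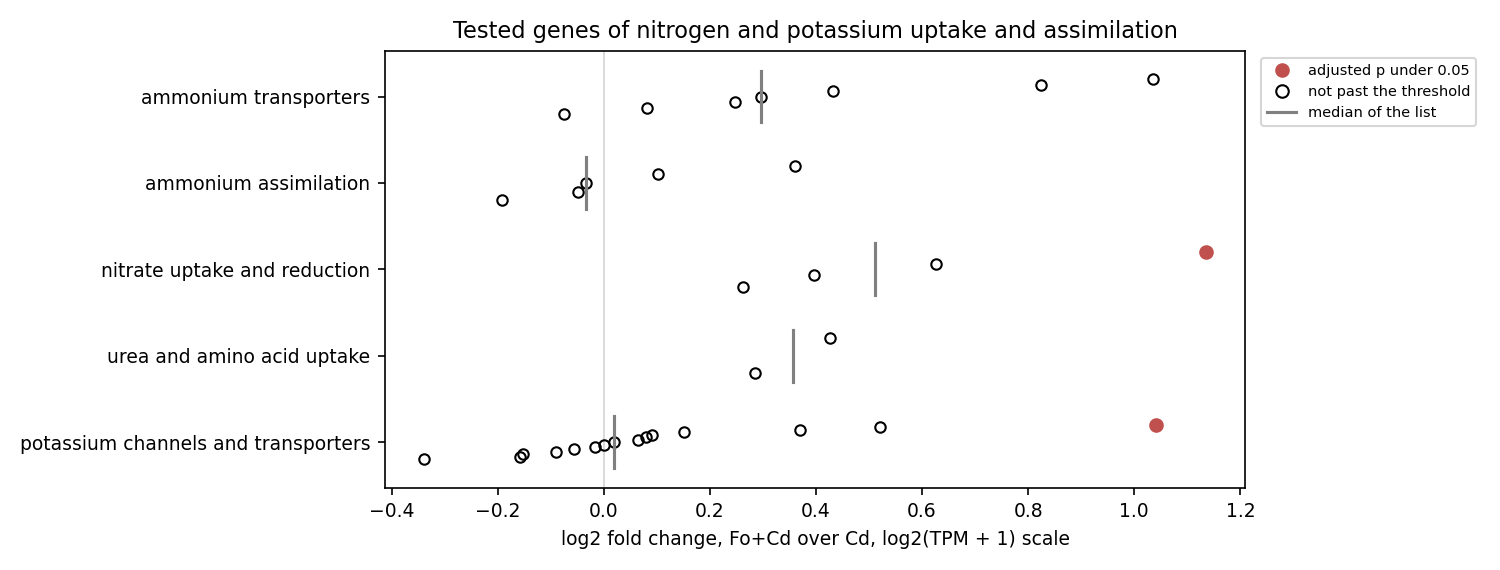
Log2 fold change (Fo+Cd over Cd, log2(TPM + 1) scale) of the tested ammonium transporters and of the tested genes of 4 other lists, 1 point a gene, filled where the limma adjusted p is under 0.05, with a grey line at each list's median. All 7 ammonium transporters are open points, with a median of 0.30, and the filled points are NPF8.3 (1.14) and HAK16 (1.04).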

How the data were processed

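Per the labels' protocols, RNA was extracted from roots with TRIzol and prepared with a stranded Illumina mRNA kit. No aligner, counter or build is given in the sources used here. The authors deposited TPM values for 42031 features, recognised from sums of 963281 to 966767 per library, and a mean per group that was not used. The labels name 3 replicates a group without saying that they came from separate plants, and p-values then reflect variation among these libraries, which may be technical.

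Values were taken as log2(TPM + 1) after a filter that required 1 TPM or more in 3 or more libraries. Fo+Cd was compared with Cd in limma 3.58.1 (R 4.3.3; empirical Bayes, trend and robust, no covariate, two-sided), with Benjamini-Hochberg adjustment over 21166 features and a threshold of 0.05. The script was tested on simulated data. Tables were made with Python 3.11.15 and pandas 2.3.3. All members were named. Of each other list, the called genes or, with none, the 2 with the smallest p were named, and 5 nearest patterns. Members and lists were chosen with earlier results of these data known.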

Additional observations from a re-analysis of the deposited data

How the results depend on the processing

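None of the 9 members was called by limma under any of the 15 alternatives, with adjusted p of at least 0.0642 throughout. The direction of each tested member was also kept, except for BGIOSGA013903, whose log2 fold change ranged from -0.15 to 0.026 with 1 library left out and was above 0 only without Cd replicate 3. BGIOSGA008640 had no value under the filter at 5 TPM. Members with an unadjusted p under 0.05 numbered 2 to 5 with 1 library left out. The summed level was higher in Fo+Cd by 59.8 to 119 TPM with 1 library left out, and by 37.1 TPM without BGIOSGA008641. Calls over all features ranged from 189 to 726 with 1 library left out. The calls in the nitrogen and potassium lists, 2 in all, became 1 with a pseudocount of 0.1 or a filter at 5 TPM, 0 with no filter, and 0 without any one library. Correlations of same-numbered deviations were -0.0325 to 0.0847, and 2 of 3 Fo+Cd libraries correlated best with their own number. With 3 libraries a group these values cannot decide whether the replicate numbers pair the libraries. With the replicate number as a block, 353 features were called, the list calls were 0, and BGIOSGA008641 had an adjusted p of 0.0642. The causes of these shifts were not tested. Depth is unknown, and BGIOSGA004884 and BGIOSGA008408 entered only the fit with no filter (adjusted p = 0.834 and 0.696). The alternatives for the summed level were chosen after seeing the data.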
